A study of Mus musculus with 19 samples.

Results

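Livers of mice lacking Ager were compared with livers of wild-type mice across all genes on an expression array, after a large liver resection. The comparison took the 6 arrays titled as Ager knockouts (Ager_null) and the 5 titled as wild type (WT), which are 11 of the 19 arrays of the study. Both groups were male C57BL/6 mice, 10 to 12 weeks old, with Myd88 intact, and both lost 85% of the liver and were killed 2 h later. Ager_null is the genotype the labels give, and the sources used here do not say how the null allele was made. A pair of other genotypes served for a second reading of the same deletion, with 4 Ager_Myd88_null and 4 Myd88_null arrays of the same strain, sex, age and resection. Unresected livers were not analysed here, and each difference below is therefore one between genotypes in an injured, regenerating remnant. Where nothing says that samples of a group came from separate animals beyond a label that speaks of RNA per mouse, the p-values measure the spread between these samples.

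Ager encodes RAGE, a cell-surface receptor of the immunoglobulin family that binds advanced glycation end products, the nuclear protein HMGB1 released from damaged cells, and calcium-binding S100 proteins. Ligand binding is relayed by the formin Diaph1 and small GTPases to MAP kinases and NF-kB, and Myd88 is the adaptor that carries Toll-like receptor and interleukin-1 receptor signals to the same end. In the remnant liver the first hours after resection are the priming phase, in which hepatocytes leave quiescence under cytokine signals from Kupffer cells. The Ager gene lies on mouse chromosome 17, in the major histocompatibility region, where it is surrounded by many genes of immunity.

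The arrays of the comparison correlated closely, and no measure of RNA or array quality was examined. Over 8515 tested genes the correlation between any pair of the 11 arrays lay between 0.97 and 0.993. The extraction text of the labels speaks of glomeruli, but the tissue label is liver. Hepatocyte markers averaged 14.33 to 14.38 (log2) per array in Ager_null and 14.20 to 14.38 in WT. The array holds 12 markers of kidney and glomerulus, of which only Podxl passed the filter on low values. The array could not check the Ager label. The brighter Ager probe set read 3.10 ± 0.22 (log2, SD, n = 6) in Ager_null and 3.26 ± 0.23 (n = 5) in WT, the other read 2.40 ± 0.03 and 2.24 ± 0.10, and neither passed log2 4, the level of the filter, on any array. Myd88 read 5.91 ± 0.38 in Ager_null and 5.55 ± 0.29 in WT, a difference of 0.36 ± 0.23 (SE) that did not pass the test. The array descriptions also carry a number after the letter S, whose meaning is not stated. All 6 Ager_null arrays lie in the range S 13 to 20, with only 1 WT array, WT 5, and the other 4 WT arrays lie at lower numbers. Ager loss and the S range therefore move together in this comparison, and values against WT 5 are given below.

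In all, 107 of 8515 tested genes (1.26%) were called different between Ager_null and WT in limma, with p-values adjusted over all tested genes by the Benjamini-Hochberg method and a threshold of 0.05. Of these, 71 were higher in Ager_null (0.834% of tested genes) and 36 were lower (0.423%). The changes were moderate, with a median size of 0.803 on the log2 scale, and 29 of them exceeded 1 (19 higher and 10 lower). The Ager_null and WT arrays did not overlap for 73 of the 107, against 315 of all tested genes (3.70%). The 107 were called on these same arrays, so a larger share than over all genes follows from the choice. A further 428 genes had an adjusted p between 0.05 and 0.1, and 1839 (21.6%) had an unadjusted p under 0.05. The median difference of all tested genes was 0.0165. Which genes passed rested on single arrays: 16 genes were called without WT 5, 19 without WT 2, 28 without Ager_null 3 or Ager_null 5, 41 without Ager_null 2, 42 without WT 1, 45 without Ager_null 4, 56 without WT 4 and 235 without WT 3. All 107 kept their direction each time, which is no independent sign of stability, since they were chosen for their size on these arrays. Without Myd88_null 4, which only shares in the estimate of the spread, 253 were called. The split moved with the scaling, to 53 higher and 44 lower after quantile normalization and 50 higher and 41 lower after median centring.

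A set of 13 genes was called whichever array of the 11 was left out, and 8 of them lie on chromosome 17. Higher in Ager_null were Abca3, H2-Bl, Glo1, Cbs and Tubb5 of chromosome 17 and, from other chromosomes, Slc45a3, Creld2 and Tshz2. Lower were Riok2, Zfp944 and the gene model 1700001C19Rik of chromosome 17 and, from other chromosomes, Lgals1 and Dck.

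**Figure D1:**
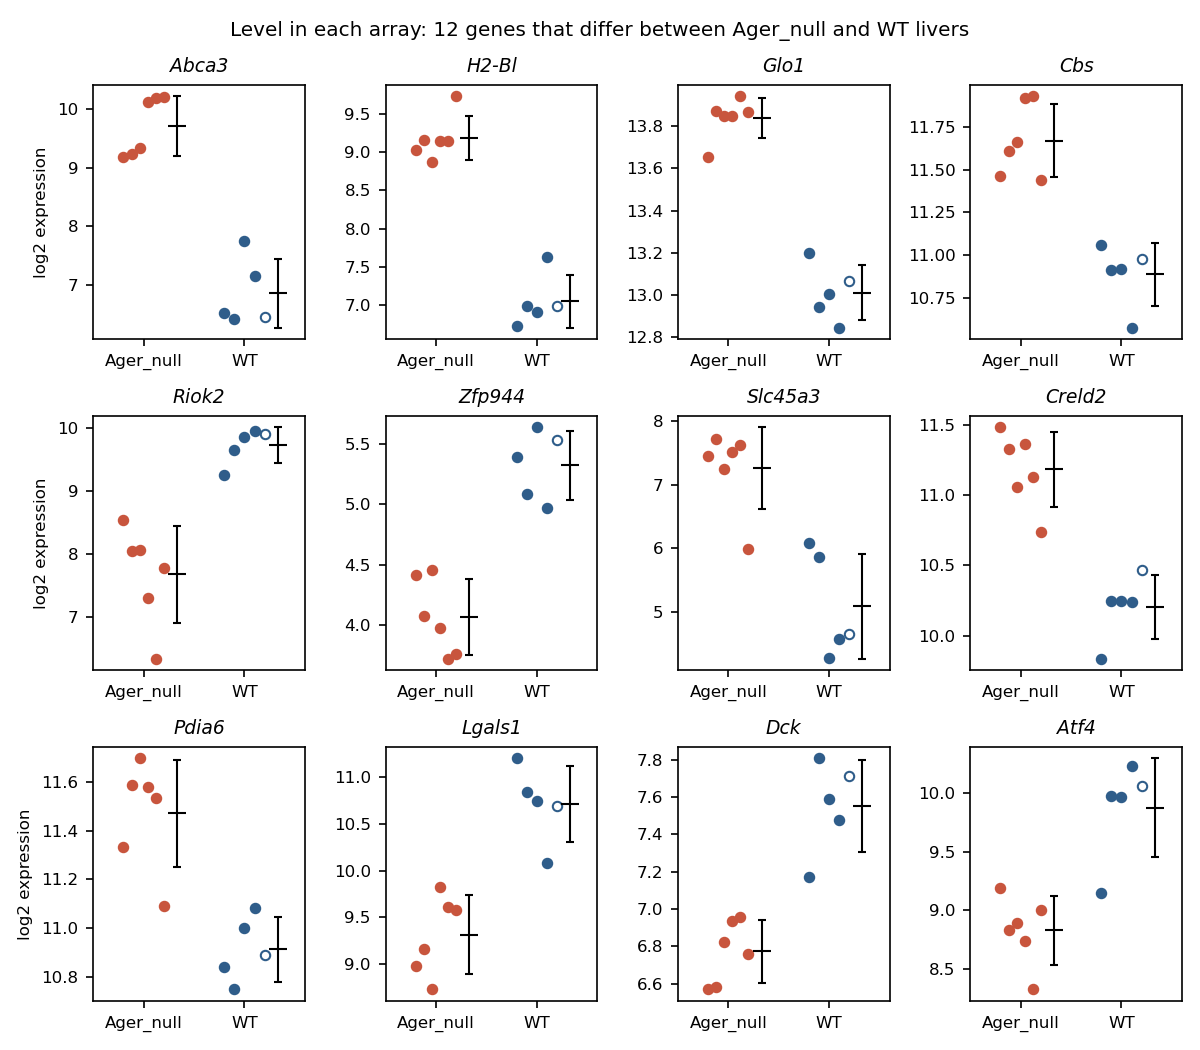
Level of 12 genes in each array (y axis, log2 expression), with the 6 Ager_null arrays in red left of the 5 WT arrays in blue, WT 5 as an open circle, and the mean and SD as a black line with bars beside each group. For 10 of the genes shown, all but Slc45a3 and Atf4, the Ager_null arrays lie entirely on one side of the WT arrays.

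Abca3, which encodes a lipid transporter best known from lung surfactant, showed the largest difference. It read 9.18, 9.23, 9.33, 10.12, 10.19 and 10.21 (log2) in Ager_null livers, against 6.51, 6.42, 7.76, 7.15 and 6.45 in WT livers. The lowest Ager_null array stood more than 1 unit above the highest WT array. The difference was 2.85 ± 0.34 (log2, SE), a 7.23-fold higher level (adjusted p = 0.000372), and another probe set of the gene moved the same way.

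H2-Bl, a class I histocompatibility gene, read 9.02, 9.16, 8.87, 9.15, 9.15 and 9.73 in Ager_null and 6.73, 6.99, 6.91, 7.63 and 6.98 in WT. The groups were far apart, and the difference of 2.13 ± 0.22 had the smallest adjusted p of all genes (0.000111). Class I genes are near copies of each other, so the probe set may read more than the named gene. Among 13 tested genes of class I and peptide loading H2-Bl was the only call, and the median of the list was 0.05 (log2), or -0.05 against WT 5 alone.

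Glo1 encodes glyoxalase 1, the enzyme that clears methylglyoxal, a precursor of the glycation products that RAGE binds. Its level was 13.66, 13.87, 13.85, 13.85, 13.94 and 13.87 in Ager_null livers, against 13.20, 12.94, 13.01, 12.84 and 13.07 in WT livers. No array of either group came near the other group, and 4 of 4 probe sets moved the same way. The difference was 0.83 ± 0.09, or 1.78-fold (adjusted p = 0.000219). Of 7 tested genes of glyoxalase and glycation detoxification Glo1 was the only one called, and the list's median was -0.06. Hagh, which encodes glyoxalase 2 and acts just after Glo1, was at -0.20 ± 0.09 (adjusted p = 0.194), and the aldehyde dehydrogenase gene Aldh2 at 0.18 ± 0.08 (adjusted p = 0.232).

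Cbs, the cystathionine beta-synthase gene of the transsulfuration pathway, read 11.46, 11.61, 11.66, 11.92, 11.93 and 11.44 in Ager_null and 11.06, 10.91, 10.92, 10.58 and 10.98 in WT, without overlap (0.78 ± 0.13, adjusted p = 0.0069). The beta-tubulin gene Tubb5 was higher by 0.69 ± 0.13 (adjusted p = 0.0191), at 9.97 ± 0.20 in Ager_null and 9.28 ± 0.12 in WT. The gene's other tested probe set had the opposite sign.

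Riok2, a kinase of small ribosomal subunit maturation, showed the largest fall. It read 8.54, 8.04, 8.06, 7.30, 6.34 and 7.77 in Ager_null livers, against 9.25, 9.65, 9.85, 9.95 and 9.90 in WT livers. The WT arrays lay close together while the Ager_null arrays were spread over more than 2 units, all below WT. The difference was -2.05 ± 0.28 (adjusted p = 0.00148), so the level was 4.13-fold higher in WT, and 3 of 3 probe sets moved the same way. No other of the 27 tested ribosome biogenesis genes was called. Tbl3 (0.63 ± 0.17) and Utp18 (-0.60 ± 0.19), both of the small subunit processome, had adjusted p-values of 0.0669 and 0.089.

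The neighbouring zinc finger genes Zfp943, Zfp944 and Zfp945, which encode zinc finger proteins of similar sequence and may share array signal, all fell. Zfp944 read 4.41, 4.08, 4.46, 3.98, 3.72 and 3.76 in Ager_null and 5.39, 5.08, 5.64, 4.97 and 5.53 in WT (-1.25 ± 0.20, adjusted p = 0.00645). Zfp945 was at -1.59 ± 0.33 (adjusted p = 0.0326), with a mean of 3.17 ± 0.74 in Ager_null that lies under the filter level and 4.76 ± 0.28 in WT. Zfp943 was at -0.98 ± 0.19 (adjusted p = 0.0233). The groups did not overlap for any of the 3. The gene model 1700001C19Rik fell by 1.49 on the log2 scale (SE 0.24, adjusted p = 0.0084).

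In all, 17 of 401 tested genes of chromosome 17 were called (4.24%), 9 higher and 8 lower, against 90 of 8103 tested genes on other chromosomes (1.11%). The chromosome with the next highest share was 14, with 9 of 296 (3.04%). In the order of annotated genes, with Ager at 0, the called genes ran from Wtap at -798 to 1700001C19Rik at 442. Within 100 genes of Ager on either side, 1 of 65 tested genes was called (1.54%) and beyond these, up to 500 genes away, 11 of 185 were (5.95%). Further out 5 of 151 were called (3.31%). Without WT 5 the calls on the chromosome numbered 9, without WT 2 10, with the S range as a block 8 and without Myd88_null 4 27. The single call within 100 genes was Rnf5, the next annotated gene to Ager. It encodes an endoplasmic reticulum ubiquitin ligase and read 10.66, 10.90, 11.11, 10.96, 11.07 and 10.78 in Ager_null, against 10.59, 10.45, 10.28, 10.26 and 10.11 in WT. The groups stood apart by a small gap, at a difference of 0.58 ± 0.10 (adjusted p = 0.0177).

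**Figure D2:**
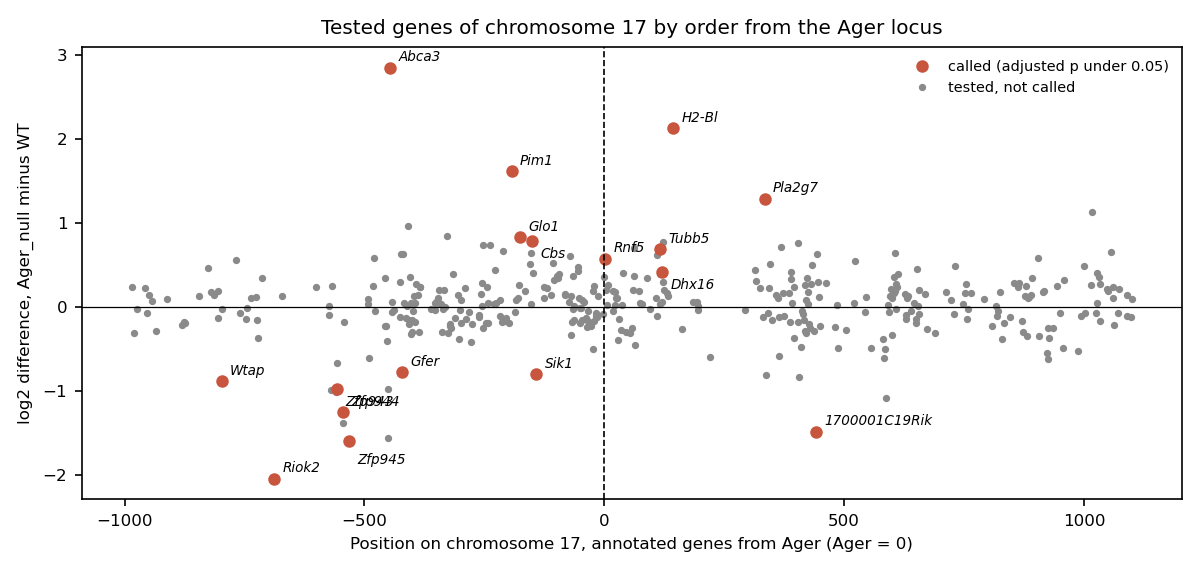
Difference between Ager_null and WT (y axis, log2) of each of the 401 tested genes of chromosome 17, placed by the number of annotated genes from Ager (x axis, Ager at 0, dashed line). The 17 called genes, in red and named, lie on both sides of Ager and mostly more than 100 genes away from it.

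Further calls on chromosome 17 were genes of varied roles. Pim1, a serine/threonine kinase gene that STAT3 induces, was at 6.51, 8.46, 7.29, 8.17, 7.14 and 7.87 in Ager_null livers, against 5.78, 6.80, 5.40, 5.95 and 5.83 in WT livers. One Ager_null array, the first, lay below the highest WT array, and the difference was 1.62 ± 0.31 (adjusted p = 0.0235). Pla2g7, which encodes an enzyme that breaks down platelet-activating factor, was higher by 1.29 ± 0.30 (adjusted p = 0.048) and Dhx16, a helicase gene of splicing, by 0.41 ± 0.09 (adjusted p = 0.0413). Sik1, a salt-inducible kinase gene, was at -0.80 ± 0.15, but its mean in Ager_null was 3.49, and with values under log2 4 set to 4 it was at -0.33 and lost the call. Wtap, a subunit gene of the RNA methyltransferase complex that writes N6-methyladenosine, was at -0.89 ± 0.20 (adjusted p = 0.0415).

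Gfer, which encodes augmenter of liver regeneration, read 10.24, 10.22, 9.83, 9.45, 9.64 and 9.75 in Ager_null and 10.81, 10.69, 10.29, 10.71 and 10.65 in WT. All Ager_null arrays lay below all WT arrays (-0.78 ± 0.14, adjusted p = 0.0191). This holds for its brightest probe set, while the mean of its pair of probe sets turned the sign, at 0.66. The other probe set therefore rose by more than the brightest fell, and the direction of the gene is not settled. Of 18 tested growth factors and receptors of regeneration Gfer was the only call. The ErbB3 receptor gene Erbb3 (0.91 ± 0.24, adjusted p = 0.064) and the EGF receptor ligand gene Tgfa (0.50 ± 0.15, adjusted p = 0.0819) came next.

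Outside chromosome 17, the calls included genes of protein folding and glycosylation in the endoplasmic reticulum. Here and below, called genes that belong to no list were grouped by their known roles after the calls were seen. Creld2, a secreted endoplasmic reticulum stress protein, read 11.48, 11.32, 11.06, 11.36, 11.13 and 10.74 in Ager_null livers, against 9.84, 10.25, 10.24, 10.24 and 10.47 in WT livers. The groups did not overlap, and the level was 1.96-fold higher in Ager_null (0.97 ± 0.18, log2, adjusted p = 0.0191). Pdia6, a protein disulfide isomerase gene, read 11.33, 11.59, 11.70, 11.58, 11.53 and 11.09 in Ager_null and 10.84, 10.75, 10.999, 11.08 and 10.89 in WT. Its lowest Ager_null array lay just above its highest WT array (0.56 ± 0.13, adjusted p = 0.0485). Also called higher were Mogs, the first glucosidase to trim new N-glycans (0.67 ± 0.15), Prkcsh, the beta subunit of the second (0.40 ± 0.10), and Rpn2, a subunit of the oligosaccharyltransferase that attaches N-glycans (0.45 ± 0.10). Adjusted p-values of these 3 lay between 0.0388 and 0.048. Atf4, the transcription factor of the integrated stress response, went the other way: it read 9.19, 8.83, 8.89, 8.74, 8.32 and 9.0003 in Ager_null and 9.14, 9.97, 9.96, 10.24 and 10.06 in WT. Only WT 1 reached into the Ager_null range, and the difference was -1.05 ± 0.23 (adjusted p = 0.0357).

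Of 28 tested genes of the endoplasmic reticulum stress and unfolded protein response list, 2 were called higher and 1 lower, and 9 had an unadjusted p under 0.05 in the higher direction and 2 in the lower. Over all tested genes 1.26% were called, and 12.9% had such a p in the higher direction and 8.68% in the lower. The list's median was 0.26, against 0.0165 over all tested genes, and 0.13 against WT 5 alone. The ubiquitin ligase gene Syvn1 was at 0.68 ± 0.22 (adjusted p = 0.0966). The main luminal chaperone genes Hspa5 (0.19 ± 0.09), Hsp90b1 (0.19 ± 0.11) and Calr (0.13 ± 0.09) were not called, and the co-chaperone gene Dnajc3 was at 0.20 ± 0.14. Hspa5 turned to -0.013 with the mean of its probe sets.

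Creld2 and Pdia6 were the only called genes whose promoter carries the endoplasmic reticulum stress response element, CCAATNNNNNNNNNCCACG, searched on both strands in the 300 bases around each annotated start (250 before to 50 after, RefSeq, GRCm38.p6). The motif was present in 39 of 32851 promoters (0.119%), in 7 of 25 genes of the stress list that had a promoter in the table (Calr, Creld2, Dnajc3, Hsp90b1, Hspa5, Pdia6 and Syvn1) and in 2 of 95 called genes. Both promoters are shown for the placement of the element, which is in capitals and begins 126 bases before the start in Creld2 (chr15:88819396-88819695, plus strand, element on the opposite strand) and 98 bases before it in Pdia6 (chr12:17266339-17266638, plus strand, element on the gene's own strand). A match is a description of the letters and not evidence of binding.
Creld2: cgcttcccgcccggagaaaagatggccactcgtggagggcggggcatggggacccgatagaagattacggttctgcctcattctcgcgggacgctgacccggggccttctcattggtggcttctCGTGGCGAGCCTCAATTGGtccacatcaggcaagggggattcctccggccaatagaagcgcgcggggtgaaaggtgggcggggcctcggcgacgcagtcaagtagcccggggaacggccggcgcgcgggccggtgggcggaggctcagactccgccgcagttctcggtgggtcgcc
Pdia6: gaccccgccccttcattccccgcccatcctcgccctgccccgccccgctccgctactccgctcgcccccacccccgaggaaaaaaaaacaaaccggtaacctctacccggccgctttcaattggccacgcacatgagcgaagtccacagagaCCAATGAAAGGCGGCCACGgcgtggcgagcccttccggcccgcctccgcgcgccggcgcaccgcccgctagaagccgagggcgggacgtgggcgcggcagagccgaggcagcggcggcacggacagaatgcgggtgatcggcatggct

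Among cytosolic chaperones, a pair of Hsp90 partners was called. Stip1, which hands clients from Hsp70 to Hsp90, read 8.32, 8.36, 8.15, 8.74, 8.93 and 8.17 in Ager_null and 7.84, 7.98, 7.75, 7.73 and 7.97 in WT (0.59 ± 0.14, adjusted p = 0.0493). Ahsa2, whose product belongs to a family of activators of the Hsp90 ATPase, was at 8.61 ± 0.22 in Ager_null and 7.76 ± 0.34 in WT (0.85 ± 0.17, adjusted p = 0.0282). Neither gene's groups overlapped. Of 19 tested heat shock genes 1 was called and 7 had an unadjusted p under 0.05, all higher, with a median of 0.18 for the list and of 0.10 against WT 5 alone. The shares over all tested genes were 1.26% called and 12.9% with such a p in the higher direction. Hspa4l (1.11 ± 0.28, adjusted p = 0.057) and Hsph1 (1.39 ± 0.42, adjusted p = 0.0834), both of the Hsp110 family, had the largest differences but did not pass. A heat shock element, GAANNTTCNNGAA, was found in 198 of 32851 promoters (0.603%), in 4 of 16 heat shock genes with a promoter in the table and in 0 of the 95 called genes.

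Several genes of secreted plasma proteins of the hepatocyte were called, all higher. The inter-alpha-trypsin inhibitor heavy chain genes Itih1, Itih2 and Itih3, whose products bind hyaluronan, all rose. Itih1 read 12.57, 12.65, 12.70, 12.51, 12.58 and 12.59 in Ager_null and 12.35, 12.21, 12.33, 12.29 and 12.28 in WT. Its difference of 0.31 ± 0.07 was the smallest of all called genes, and the arrays of each group lay close together. Itih2 was at 0.47 ± 0.10 (adjusted p = 0.0297) and Itih3 at 0.40 ± 0.09 (adjusted p = 0.0422), also without overlap. Habp2, a hyaluronan-binding serine protease gene, rose by 0.92 ± 0.22 (adjusted p = 0.048), and C6, a component of the membrane attack complex, by 0.51 ± 0.12 (adjusted p = 0.0493). Of 25 tested complement and coagulation genes 1 was called, 8 had an unadjusted p under 0.05, all higher, and 23 of 25 lay above WT, at a median of 0.18. Among all 8515 tested genes 1.26% were called, 12.9% had such a p in the higher direction and 4447 lay above WT. Factor XII, F12 (0.36 ± 0.10, adjusted p = 0.0669), and plasma kallikrein, Klkb1 (0.30 ± 0.10, adjusted p = 0.114), came next after C6.

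Regulators of transcription and chromatin appeared in both directions. Clock, a core activator of the circadian oscillator, read 6.81, 6.81, 6.79, 7.43, 7.09 and 7.11 in Ager_null livers, against 6.54, 6.28, 6.38, 4.82 and 5.97 in WT livers. WT 4 was far below the other WT arrays, and the groups did not overlap (1.01 ± 0.24, adjusted p = 0.048). Klf9, a factor that glucocorticoids induce, rose by 0.90 ± 0.21 (adjusted p = 0.0455), and Klf6, an early response factor of the same family, fell by 0.82 (SE 0.19, adjusted p = 0.048). Tshz2, a zinc finger homeobox gene, rose by 0.93 ± 0.16 (adjusted p = 0.011). The histone methyltransferase genes Prdm2 (1.14 ± 0.25) and Ezh1 (0.69 ± 0.16), the menin gene Men1 (0.66 ± 0.14), the cohesin subunit gene Stag1 (0.60 ± 0.14), the factor gene Gtf2ird1 (1.04 ± 0.23) and the RNA polymerase III subunit gene Polr3a (0.75 ± 0.18) were higher. The chromatin reader gene Zmynd8 was at 1.42 ± 0.31 but averaged 3.45 in WT, and its other tested probe set did not have the same sign. With low values set to 4, Zmynd8 (0.85) and Ezh1 (0.23) were no longer called. Ino80c, a subunit gene of the INO80 remodeller (-0.93 ± 0.18), and Zfp58 (-0.86 ± 0.19, or -0.32 and not called with low values set to 4) were lower.

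Transporters, receptors and signalling proteins made up another part of the calls. Slc45a3, a gene of the sugar transporter type best known from prostate, read 7.45, 7.72, 7.25, 7.52, 7.63 and 5.98 in Ager_null and 6.09, 5.86, 4.27, 4.58 and 4.66 in WT. Ager_null 6 fell just below WT 1 and all other Ager_null arrays lay above WT, at a difference of 2.17 ± 0.32 (adjusted p = 0.00471). Slc16a1, the monocarboxylate transporter for lactate, rose by 0.60 ± 0.14 (adjusted p = 0.048), and Slc16a12, a creatine transporter of the same family, fell by 0.70 (SE 0.14, adjusted p = 0.0282). The prostaglandin transporter gene Slco2a1 (0.81 ± 0.18), the transporter gene Abca8b (0.84 ± 0.19), the lysophosphatidic acid receptor gene Lpar6 (0.85 ± 0.20), the semaphorin receptor gene Plxnb2 (0.96 ± 0.21) and the Notch antagonist gene Numb (0.63 ± 0.14) were higher.

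Gnai1, an inhibitory G protein alpha subunit gene, read 3.87, 4.31, 3.62, 4.89, 4.19 and 6.19 in Ager_null livers, against 6.01, 5.77, 7.03, 6.53 and 6.64 in WT livers. Ager_null 6 lay within the WT range, and the difference was -1.88 ± 0.38 (adjusted p = 0.0282). Ackr3, a scavenger receptor gene for the chemokine CXCL12, was at -1.38 ± 0.33 (adjusted p = 0.0493), or -1.25 and not called with low values set to 4. The caveolin gene Cav1 (-0.68 ± 0.16), whose product shapes endothelial caveolae, was also lower. Ide, which encodes the insulin-degrading enzyme, rose by 0.71 ± 0.15 (adjusted p = 0.0357). The RNA-binding protein gene Atxn2 (1.15 ± 0.21), the ubiquitin ligase gene Herc2 (0.98 ± 0.20), Sowahb (1.29 ± 0.29) and Tspyl4 (1.14 ± 0.24) were higher without overlap of the groups, and Ccdc122 (-0.96 ± 0.20) and the ubiquitin ligase gene Trim23 (-0.76 ± 0.17) were lower without overlap. Tspyl4 averaged 3.23 in WT and was at 0.43, not called, with low values set to 4.

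Genes of adhesion, matrix and cytoskeleton followed. Lgals1, which encodes the glycan-binding protein galectin-1, read 8.98, 9.16, 8.73, 9.83, 9.62 and 9.58 in Ager_null and 11.21, 10.85, 10.75, 10.09 and 10.70 in WT. All Ager_null arrays lay below all WT arrays (-1.40 ± 0.22, adjusted p = 0.0069), and WT was 2.64-fold higher. Fat1, an atypical cadherin gene, was at 6.14, 6.19, 6.92, 7.62, 6.80 and 7.23 in Ager_null and 4.94, 4.04, 5.93, 5.08 and 4.40 in WT (1.94 ± 0.41, adjusted p = 0.0357). The matrix protein gene Postn (0.92 ± 0.19), the actin regulator genes Eps8l2 (1.14 ± 0.21) and Lasp1 (0.54 ± 0.12) and the spindle protein gene Numa1 (0.63 ± 0.15) were higher, and Gas2, an actin-microtubule linker gene (-0.62 ± 0.13), Csrp2 (-0.52 ± 0.13) and the emerin gene Emd (-0.61 ± 0.14) were lower. The collagen gene Col1a2 was at 4.32 ± 0.34 in Ager_null and 3.60 ± 0.17 in WT (0.72 ± 0.15), levels near the filter, and at 0.34 with low values set to 4 it was not called.

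Enzymes and other proteins of metabolism were called in both directions. Fitm1, whose product promotes lipid droplet formation, read 6.49, 7.44, 7.46, 8.89, 8.82 and 6.90 in Ager_null livers, against 9.70, 9.60, 9.73, 8.68 and 9.49 in WT livers. Ager_null 4 and 5 lay just above WT 4 and below the other WT arrays (-1.77 ± 0.38, adjusted p = 0.0357). Dck, the deoxycytidine kinase of the nucleoside salvage pathway, read 6.57, 6.58, 6.82, 6.94, 6.96 and 6.76 in Ager_null and 7.17, 7.81, 7.59, 7.48 and 7.71 in WT (-0.78 ± 0.13, adjusted p = 0.00841). Cyp2r1, a vitamin D 25-hydroxylase gene (-0.62 ± 0.12), Rdh16, a retinol dehydrogenase gene (-0.56 ± 0.13), Hacd2, a dehydratase gene of very long chain fatty acid elongation (-0.49 ± 0.10), and Hnmt, the histamine methyltransferase gene (-0.58 ± 0.12), were lower, with adjusted p-values between 0.0264 and 0.048. Ctse, which encodes the aspartic protease cathepsin E, was higher by 2.33 ± 0.47 (adjusted p = 0.0282), at 8.58 ± 0.69 in Ager_null and 6.25 ± 1.04 in WT. The autophagy genes Wipi1 (0.53 ± 0.13) and Zfyve1 (1.17 ± 0.23) were higher too. The acylphosphatase gene Acyp2 was at -1.15 ± 0.25 (adjusted p = 0.0357).

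The genes of RAGE's own axis are few, and at the share of 1.26% called over all tested genes a count of 0 among them is no result about them. The 11 tested RAGE ligand genes did not include Hmgb1. Of the 11, 0 passed and 1 had an unadjusted p under 0.05 in the lower direction, against 8.68% of all tested genes. In this list 10 of 11 lay below WT, against 4068 of 8515 tested genes. The list's median was -0.29, or -0.05 with the S range as a block. S100a13 was at -0.43 ± 0.17 (adjusted p = 0.146), S100a1 at -0.26 ± 0.13 (adjusted p = 0.245) and the HMGB1 relative Hmgb3 at -0.29 ± 0.16 (adjusted p = 0.296). The neutrophil alarmin genes S100a8 and S100a9 varied widely. S100a8 read 10.86, 10.24, 9.86, 11.30, 8.31 and 10.28 in Ager_null and 10.95, 11.46, 10.25, 10.86 and 10.28 in WT, with full overlap of WT by Ager_null but for WT 2. S100a9 was at -0.40 ± 0.49 (adjusted p = 0.667).

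Of 15 tested RAGE signal transduction genes 0 were called, and 4 had an unadjusted p under 0.05 in the higher direction and 1 in the lower, at a median of 0.10, or 0.26 against WT 5 alone. Such a p was reached by 12.9% of all tested genes in the higher direction and by 8.68% in the lower. Diaph1, the formin that binds the RAGE tail, read 7.52, 7.96, 8.29, 8.24, 8.46 and 7.81 in Ager_null and 7.70, 7.40, 7.66, 7.38 and 7.40 in WT. Only the first Ager_null array lay within the WT range, and the difference of 0.54 ± 0.15 had an adjusted p of 0.0675. The p38 kinase gene Mapk14 was at 0.44 ± 0.13 (adjusted p = 0.074) and the small GTPase gene Cdc42 at -0.19 ± 0.08 (adjusted p = 0.166). Among 8 other receptors for glycated proteins 1 was called, Prkcsh, which also serves glycan trimming as above. The scavenger receptor gene Cd36 was at -1.26 ± 0.36 (adjusted p = 0.0711), and Scarb1 at 0.22 ± 0.09 (adjusted p = 0.153).

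The inflammatory lists were read against the share of 1.26% called over all tested genes. An unadjusted p under 0.05 was reached by 12.9% of these in the higher direction and by 8.68% in the lower. The filter on low values kept 14 of 25 Toll-like receptor pathway genes on the array and 17 of 25 NF-kB targets and cytokines. Those left out, among them Tlr2, Tlr4, Tnf and Il6, were not tested. Of the 14 and 17 tested genes 0 were called, with medians of -0.06 and -0.20. Against WT 5 alone these were 0.095 and -0.31. The lipopolysaccharide-binding protein gene Lbp was at 0.54 ± 0.15 (adjusted p = 0.0707), Irf7 at -0.61 ± 0.25 (adjusted p = 0.171) and the chemokine gene Cxcl10 at -1.004 ± 0.35 (adjusted p = 0.12). Of 30 tested acute phase and IL-6/STAT3 genes Pim1 and Itih3 were called higher, and 8 had an unadjusted p under 0.05 in the higher direction and 4 in the lower (median 0.13, or 0.22 with the S range blocked). The C/EBP factor gene Cebpd was at -0.36 ± 0.10 (adjusted p = 0.0669). Of 25 tested immediate early genes Klf6 was called lower. Ier5 (-0.60 ± 0.17, adjusted p = 0.0703) and Nr4a2 (-1.34 ± 0.49, adjusted p = 0.133) came next, and the median was 0.04, or -0.14 against WT 5 alone. Of 16 tested interferon-stimulated genes 0 were called and 13 lay below WT (median -0.24, or 0.06 with the S range as a block), with Irf9 at -0.63 ± 0.24 (adjusted p = 0.145).

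Hormone and clock lists were set beside the balance of all tested genes, of which 4447 lay above WT and 4068 below, and 12.9% had an unadjusted p under 0.05 in the higher and 8.68% in the lower direction. Of 23 tested genes of insulin signalling, gluconeogenesis and glycogen 0 were called, 7 had an unadjusted p under 0.05, all higher, and 22 of 23 lay above WT at a median of 0.24. That median was 0.12 with the S range as a block and 0.44 against WT 5 alone. Foxo3 (0.76 ± 0.20, adjusted p = 0.06), Irs1 (1.36 ± 0.42, adjusted p = 0.0862) and the glucose-6-phosphate transporter gene Slc37a4 (0.35 ± 0.14, adjusted p = 0.165) had the smallest p-values. Irs1 read 6.51, 7.82, 8.01, 8.18, 7.83 and 7.71 in Ager_null and 6.38, 5.89, 7.27, 6.72 and 5.33 in WT, so that the first Ager_null array alone lay in the WT range. WT 5 had the lowest mean level of this list, 9.16, against 9.16 to 9.73 over the WT arrays and 9.64 to 9.94 over the Ager_null arrays. Of 16 tested glucocorticoid-induced genes Klf9 was called (median 0.13), and Lpin1, a phosphatidate phosphatase gene, was at 0.71 ± 0.20 (adjusted p = 0.0711). Of 15 tested clock genes Clock was called (median -0.10, or -0.31 with the S range blocked, and up to 0.14 with an array left out). The repressor gene Bhlhe40 was at 0.67 ± 0.17 (adjusted p = 0.0583) and the nocturnin gene Noct at -0.63 ± 0.19 (adjusted p = 0.0813).

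Metabolic lists of the hepatocyte followed, again beside 1.26% called and 21.6% with an unadjusted p under 0.05 over all tested genes. Of 20 tested cholesterol synthesis genes, 21 of fatty acid and triglyceride synthesis, 19 of PPAR-alpha and fatty acid oxidation, 19 of bile acids, 19 of xenobiotic metabolism and 16 of the NRF2 antioxidant response 0 were called. An unadjusted p under 0.05 was reached in fatty acid oxidation by 5 genes in the higher direction and 2 in the lower, and in xenobiotic metabolism by 0. The list medians lay between -0.18, for cholesterol synthesis, and 0.10, for fatty acid oxidation, or -0.04 and -0.07 once the S range was blocked. In the oxidation list the alpha subunit gene of the mitochondrial trifunctional protein, Hadha, was at 0.38 ± 0.11 (adjusted p = 0.0722) and the beta subunit gene Hadhb at -0.28 ± 0.10 (adjusted p = 0.134). Of 19 tested genes of the urea cycle and amino acid catabolism Cbs was the only call, at a median of 0.11. Of 16 tested cell cycle genes and 19 tested apoptosis genes 0 were called, with Ccnd2 at 0.54 ± 0.18 (adjusted p = 0.114).

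**Figure D3:**
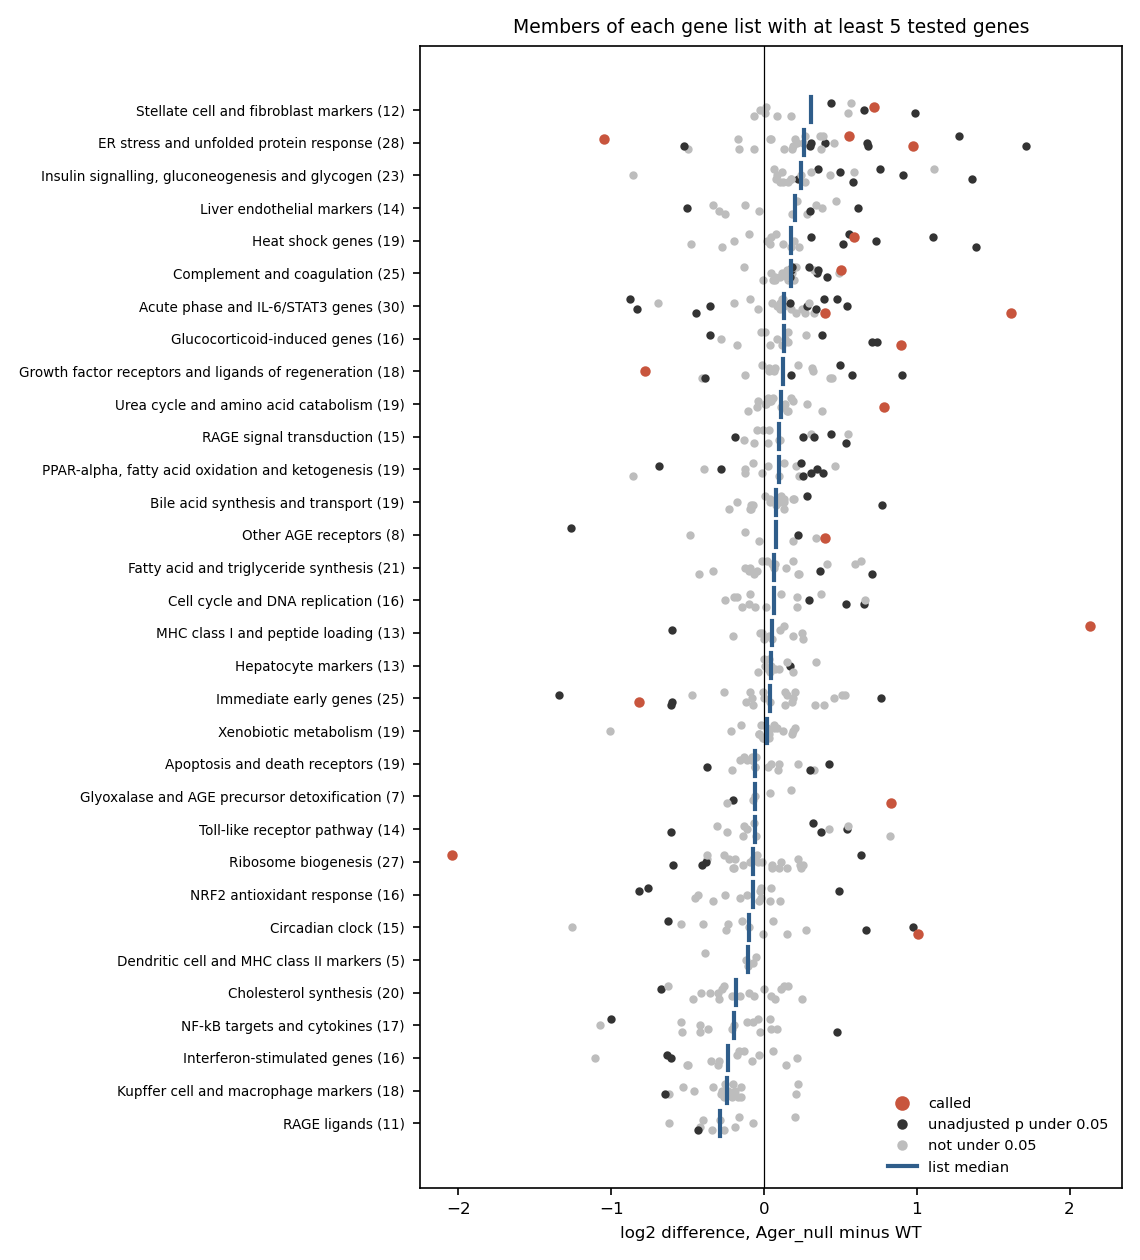
Difference between Ager_null and WT (x axis, log2) of each tested member of the gene lists with at least 5 tested genes (y axis, number tested in brackets), ordered by the list median (blue line). Called genes are red, genes with an unadjusted p under 0.05 black and others grey, and medians run from -0.29 for RAGE ligands to 0.31 for stellate cell markers.

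Markers of the other cells of the liver were set beside these results, since in whole liver fewer cells of a type and less RNA per cell cannot be told apart. With 1.26% called over all tested genes, a count of 0 in such short lists is no result about the cells. An unadjusted p under 0.05 was reached by 12.9% of all tested genes in the higher direction and by 8.68% in the lower. Of all tested genes 4447 lay above WT and 4068 below. Of 18 tested Kupffer cell and macrophage markers 0 were called, 1 had an unadjusted p under 0.05 and 16 lay below WT, at a median of -0.24. Their mean level ran from 7.77 to 8.73 in Ager_null and from 7.96 to 8.77 in WT, with the highest value in WT 5. Blocking on the S range put the median at 0.26, of the opposite sign. Of 12 tested stellate cell and fibroblast markers Col1a2 was called and 10 lay above WT, at a median of 0.31 (0.58 with the S range as a block), with mean levels of 6.11 to 6.64 in Ager_null and 6.05 to 6.28 in WT. Reln (0.99 ± 0.27, adjusted p = 0.0669) and Pdgfrb (0.65 ± 0.18, adjusted p = 0.0672) came next. Of 14 tested endothelial markers 0 were called (median 0.20, or -0.01 against WT 5 alone), with Egfl7 at -0.50 ± 0.19 (adjusted p = 0.149) and Ptprb at 0.30 ± 0.13 (adjusted p = 0.174). Igha, the immunoglobulin A heavy chain gene of plasma cells, was called higher. It read 5.75, 5.36, 4.79, 5.45, 5.19 and 5.25 in Ager_null and 3.89, 3.60, 4.06, 3.97 and 4.22 in WT (1.35 ± 0.28, adjusted p = 0.0326), while the other 3 tested B and plasma cell markers lay below WT and were not called. Of 13 hepatocyte markers 0 were called. What part cell composition has in the called genes was not tested.

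The 107 genes were next read against WT 5, the WT array in the same S range as all Ager_null arrays. All 107 kept their direction, with a median size of 0.938 against WT 5 and 0.778 against the mean of WT 1 to 4. WT 5 lay outside the range of the 6 Ager_null arrays for 105 of the 107, against 46.1% of all tested genes. These genes were called with WT 5 among the arrays, so the reading is not independent of the call. With the S range as a block in the fit 59 genes were called (0.693%), 20 higher and 39 lower. Only 11 of them were among the 107, while all 107 kept their direction at a median size of 0.800 and 102 had an unadjusted p under 0.05. WT 5 is the only WT array within the range, and the fitted range effect also draws on Myd88_null 4, which lies at S 20. The median standard error over all tested genes was 0.227 with the block and 0.162 without it. The 11 genes were Abca3, H2-Bl, Glo1, Rnf5, Zfp943 and Riok2 of chromosome 17, and Slc45a3, Eps8l2, Tshz2, Plekhb2 and the gene model 1600020E01Rik of other chromosomes.

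**Figure D4:**
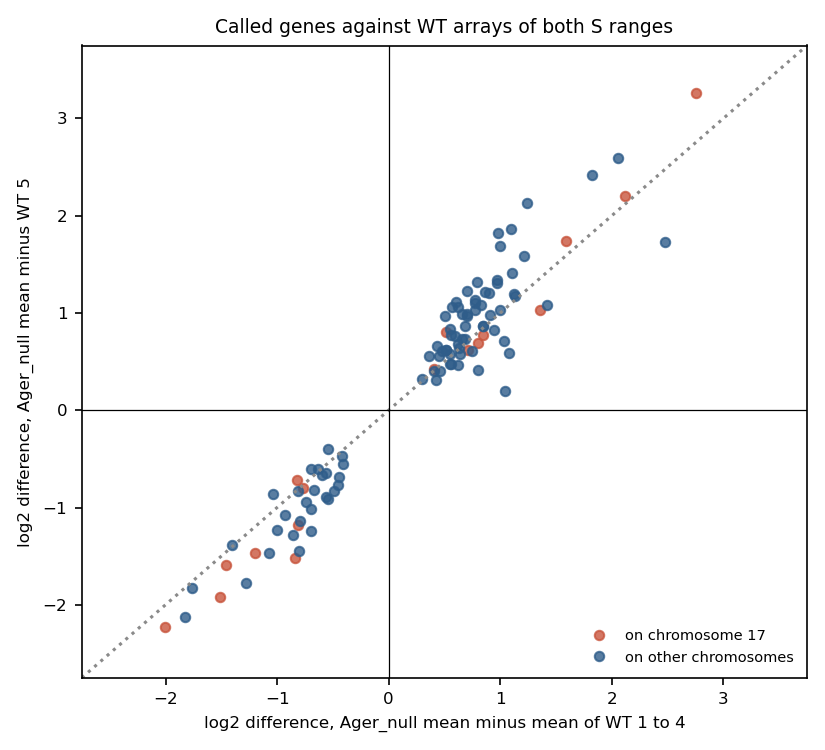
Each point is 1 of the 107 called genes, placed by the Ager_null mean minus the mean of WT 1 to 4 (x axis, log2) and by the Ager_null mean minus WT 5 (y axis, log2), with genes of chromosome 17 in red and the dotted line marking equal differences. All points lie in the lower left or upper right part of the plot, so every called gene has the same direction against WT 5 as against the other WT arrays.

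Ager loss was also read in livers that lack Myd88, from 4 Ager_Myd88_null and 4 Myd88_null arrays, of which none is in the main comparison. There 13 genes were called (0.153%) and 1370 (16.1%) had an unadjusted p under 0.05. Of the 17 called genes of chromosome 17, 15 had the same sign in these livers and 12 of those had an unadjusted p under 0.05, against 38.4% of all tested genes of chromosome 17 with the same sign. Of the 90 called genes on other chromosomes, 24 had the same sign and the rest the opposite one, and 36.0% of all tested genes there had the same sign. An unadjusted p under 0.05 was reached by 3 of the 24, and with the opposite sign by 12.

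H2-Bl read 9.20, 9.39, 9.38 and 9.10 in Ager_Myd88_null livers, against 7.14, 5.70, 5.85 and 6.44 in Myd88_null livers, again far apart (2.98, adjusted p = 6.52e-06). Glo1 read 13.91, 13.73, 13.85 and 13.62 in Ager_Myd88_null and 12.94, 13.12, 13.37 and 13.19 in Myd88_null (0.62, adjusted p = 0.0254). Abca3 read 9.78, 9.82, 9.54 and 9.76 in Ager_Myd88_null and 6.55, 8.02, 8.46 and 8.82 in Myd88_null, without overlap (1.76, adjusted p = 0.0896). Zfp944 (-1.19), Gfer (-0.87) and Tubb5 (0.89) were called here as well, and Riok2 was at -1.54 (adjusted p = 0.0675). Gfer and Tubb5 were again read from their brightest probe set only. Pim1 and Wtap were the exceptions on chromosome 17, with the opposite sign at -1.22 and 0.34.

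Among genes of other chromosomes, Creld2 read 10.46, 9.98, 10.46 and 10.42 in Ager_Myd88_null and 10.43, 9.91, 11.03 and 10.77 in Myd88_null, with full overlap. Lgals1 read 10.88, 10.27, 11.28 and 10.91 in Ager_Myd88_null and 10.87, 11.22, 11.49 and 11.05 in Myd88_null, all above the lowest WT array. Ctse read 5.46, 6.21, 6.45 and 5.59 in Ager_Myd88_null and 6.39, 7.29, 8.81 and 6.90 in Myd88_null, a difference of -1.42 against 2.33 in the main comparison. Slc16a12 of chromosome 19 kept its sign, at -0.77 without Myd88 (adjusted p = 0.0675) against -0.70 in the main comparison. Eps8l2 (0.54) and Plekhb2 (0.42) also kept theirs without Myd88, with an unadjusted p under 0.05. The test of the difference between the Ager effects with and without Myd88 was called for 38 of the 107 genes, 3 on chromosome 17 and 35 elsewhere, and for 205 of all tested genes (2.41%). That test contains the arrays on which the 107 were called, so a larger share than over all genes follows from the choice. For Creld2 the effect without Myd88 was lower by 1.18 (adjusted p = 0.039), and for Atf4 it was higher by 1.42 (adjusted p = 0.045).

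**Figure D5:**
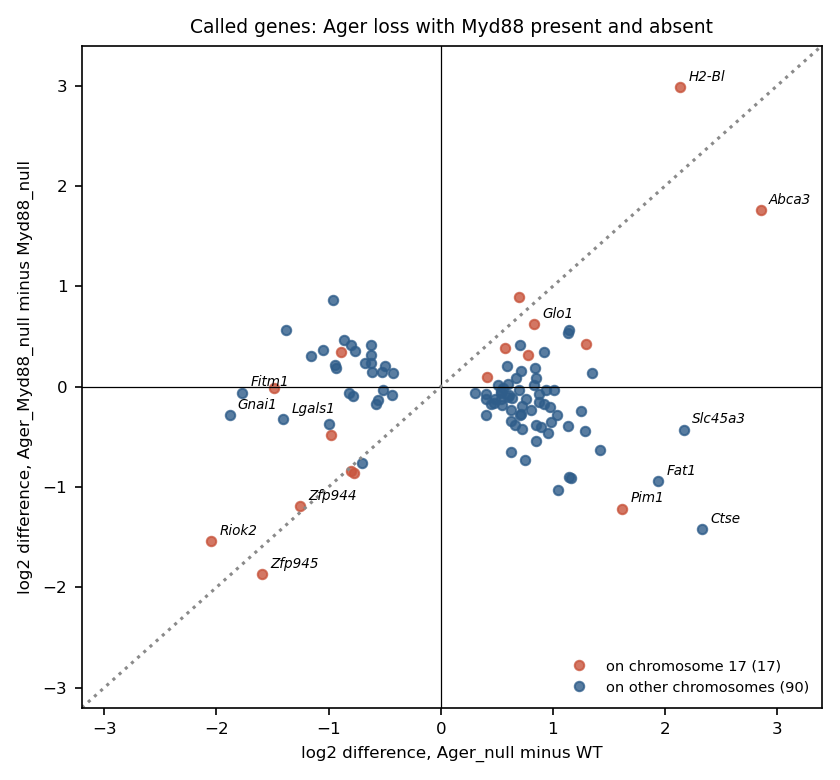
Each point is 1 of the 107 called genes, placed by Ager_null minus WT (x axis, log2) and by Ager_Myd88_null minus Myd88_null (y axis, log2), with the 17 genes of chromosome 17 in red, the other 90 in blue and the dotted line marking equal differences. Of the red points 15 have the same sign on both axes, all but Pim1 and Wtap, at varying distance from the dotted line, and 24 of the blue points do.

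Few called genes set Ager_null apart from every other genotype. The 6 Ager_null arrays lay beyond all 13 other arrays for 9 of the 107, against 20 of all tested genes (0.235%). These were Clock, Ahsa2, Col1a2, Cmc1, Hacd2, Gas2, Dck, Lgals1 and 1700001C19Rik. Since the 107 were called for a difference between Ager_null and WT, a larger share than over all genes follows from the choice. For Clock the Ager_Myd88_null arrays read 6.32, 6.37, 5.96 and 6.05 and the Myd88_null arrays 6.04, 5.92, 6.51 and 6.36, all under the lowest Ager_null array.

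Probe sets with no gene symbol were tested apart from the genes. Of 696 that passed the filter on low values 21 were called between Ager_null and WT (3.02%), in limma with adjustment over these probe sets. The smallest p belonged to probe set 1458719_at, at 3.37 ± 0.27 (log2, SE), a larger difference than that of any named gene, followed by 1435872_at, at -2.57 ± 0.38. What they measure is not named here.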

How the data were processed

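RNA of 19 mouse liver samples was measured on Affymetrix arrays, 1 array per sample. The values deposited by the authors are on the log2 scale, 1 per probe set and array, and come from GCRMA 2.16 per the submitters' processing notes. Labelling used an in vitro transcription kit with biotin, per the labels' protocols. The sources used here give no further steps.

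Of 45101 probe sets, 64 were controls, 34945 had 1 gene symbol in the platform annotation, 932 several and 9160 none. The probe set with the highest mean stood for each of 18193 genes, and 8515 genes over log2 4 on at least 4 arrays were tested. The 4 genotypes entered 1 fit in limma 3.58.1 under R 4.3.3 (lmFit and eBayes), with two-sided tests and Benjamini-Hochberg adjustment. Errors beside group means are SDs between the arrays of the group, and errors beside differences are standard errors. On simulated arrays with 200 of 8515 genes changed, 35.1% of changes of 0.5, 82.5% of 1 and 98.8% of 2 (log2) were recovered, and 4.51% of calls were false. The simulated noise was independent between genes and arrays and held no S range effect. The share of false calls therefore does not carry over to the calls on the real arrays. The number of arrays limits the precision.

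Gene order and promoters came from RefSeq tables of GRCm38.p6. Any pair of arrays within Ager_null or within WT had a root mean square difference of 0.346 or more, so none was a copy of the values of another. A sample measured again on a further array would also differ, so this does not exclude it. The 27 pathway and 11 marker lists, and the genes named, were chosen with earlier results of these data known. Named are all calls on chromosome 17, the 15 largest rises and 15 largest falls without overlap (unless they have only a model name), other calls by role, and the members with the smallest p in a list, at most 3. S100a8, S100a9 and the genes of the stress list that carry the promoter element were added for their role. Hmgb1, Tlr2, Tlr4, Tnf and Il6 are named as genes without a value here. Alternatives covered the arrays in the fit, filter, floor, scaling, probe set, variance model, S range, replicate number and each array left out. Same-numbered Ager_null and WT arrays did not deviate together (correlations from -0.153 to 0.148), so the numbers were not taken as pairs.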

Additional observations from a re-analysis of the deposited data

Results flagged for a closer look

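The effect of Ager loss differed between livers without and with Myd88 for 38 of the 107 called genes and 5 of the list members named, by the test of the difference in limma. The value given is the Ager effect in Ager_Myd88_null against Myd88_null minus the effect in Ager_null against WT, on the log2 scale, with adjusted p-values under the threshold. The arrays on which the genes were called enter this test. Over all tested genes 205 (2.41%) passed it, and a larger share among the called genes follows from the choice. The list members Mapk14, Lbp, Lpin1 and Bhlhe40 were named for a small p on the same arrays, so the same holds for them. On chromosome 17 these were Pim1 (-2.834), Wtap (1.23) and 1700001C19Rik (1.473). Elsewhere the difference was most negative for Ctse (-3.749), Fat1 (-2.883), Slc45a3 (-2.594), Mast3 (-2.077), Zfyve1 (-2.074), Zmynd8 (-2.054), Atxn2 (-2.046), Sowahb (-1.728), Prdm2 (-1.527) and Polr3a (-1.482). Smaller negative values belonged to Plxnb2 (-1.423), Lpar6 (-1.395), Herc2 (-1.337), Klf9 (-1.296), Numa1 (-1.275), Nisch (-1.231), Creld2 (-1.178), Neurl4 (-1.146), Men1 (-1.044) and Ide (-0.9924). The smallest in size were Numb (-0.97), Tshz2 (-0.9693), Prkcsh (-0.6815), Itih2 (-0.6326) and Rpn2 (-0.6224). Positive values, of genes that were lower in Ager_null, were found for Ccdc122 (1.827), Atf4 (1.416), Zfp58 (1.327), 1600020E01Rik (1.223), Ino80c (1.119), Trim23 (1.116) and Commd9 (1.041). Also positive were Gas2 (0.9329), Cyp2r1 (0.8631) and Hacd2 (0.695). Among genes not called in Ager_null against WT the difference passed for Mapk14 (-0.8889), Lbp (-0.9483), Syvn1 (-1.341), Lpin1 (-1.259) and Bhlhe40 (-1.4).

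Single arrays stood away from the rest of their group for 12 values, by a test on which chance marks about 1 group in 20. It was run on both groups for 153 genes, so 12 marks are no more than chance would give. Ager_null 1 had Glo1 at 13.66 (others 13.85 to 13.94), Irs1 at 6.514 (others 7.709 to 8.18) and F12 at 12.47 (others 12.75 to 12.79). Ager_null 6 had Slc45a3 at 5.984 (others 7.252 to 7.72), H2-Bl at 9.731 (others 8.874 to 9.164) and Calr at 13.37 (others 13.61 to 13.73). WT 1 had Atf4 at 9.144 (others 9.964 to 10.24). WT 4 had H2-Bl at 7.631 (others 6.728 to 6.986), Nlrp12 at 11.26 (others 10.81 to 10.88), Fitm1 at 8.678 (others 9.493 to 9.728) and Cd36 at 9.509 (others 10.27 to 10.44). WT 5 had Egfl7 at 8.978 (others 8.516 to 8.607).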

How the results depend on the processing

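The number of calls moved with single arrays and settings. Against the 107 called genes (71 higher, 36 lower, 17 on chromosome 17), 33 were called from only the 11 arrays of both groups (23 higher, 10 lower, 8 on chromosome 17), 43 with no filter on low values (26 and 17), 60 with the S range as a random block (36 higher, all 60 among the 107) and 59 with it as a fixed block (20 higher, 8 on chromosome 17). Against WT 5 alone 12 were called (7 higher, 5 lower, 2 on chromosome 17), in a comparison where 1 array stands for WT and is assumed to vary like the other groups. Leaving out 1 array of the 11 gave 16 to 235 calls, with 10 to 182 higher, 6 to 54 lower and 9 to 20 on chromosome 17, and without Myd88_null 4 there were 253 (180 higher, 73 lower, 27 on chromosome 17). The other settings gave 91 to 140 calls. Abca3 and H2-Bl were called in all 24 settings.

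With the replicate number as a replicate block 127 genes were called (82 higher, 45 lower), 68 of them among the 107. The numbers do not pair the arrays, and 1 of 5 Ager_null arrays correlated best with the WT array of its own number. Signs turned for Gfer (0.658) and Hspa5 (-0.0131) with the mean of probe sets and for S100a9 with the S range as a block (0.0335) and against WT 5 alone (0.287), and the cause was not tested. Values under log2 4 lie near the array's background: 11 calls were lost with them set to 4. All Ager_null arrays share an S range with 1 WT array, WT 5, and with Myd88_null 4. What part the range has in the calls cannot be told apart from genotype beyond WT 5 and Myd88_null 4.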

Other observations

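When the S range entered the fit as a block, 48 of the genes called were not among the 107. Their median size without the block was 0.388, and WT 5 was the highest or the lowest of the 11 arrays for 46 of them.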
